A study of Mus musculus with 10 samples.

Results

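The DNA replication genes described here are 43 mouse genes whose products copy the genome or bring a cell into S phase, the stage of the cell cycle in which DNA is copied. They were chosen by name, and every probe set (a group of short array probes read as 1 value) annotated with one of these gene symbols was taken, which gave 99 of the 45101 probe sets on the array. All 43 genes had a probe set with enough signal to be tested, among 11357 genes tested in all. Each gene is given by its brightest usable probe set, and 83 of the 99 probe sets were usable under the signal filter.

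By the labels, RNA came from osteoblasts, the bone-forming cells, of mice aged 2 to 3 days. The background strain is written C5BL6 in the labels, with sex not determined. The bcat samples, 3 in number, came from mice with constitutive expression of β-catenin in osteoblasts. The FoxO1 samples, also 3, came from mice whose FoxO1 gene was deleted in osteoblasts, and the wt samples were 4 from wild-type mice. The promoter or Cre line behind either change, and the altered part of either gene, are not given in the sources used here. Whether each sample stands for 1 mouse, several pooled mice or a dish of cells is not stated, so every p-value rests on the spread of these arrays alone, and part of that spread may be technical.

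Replication starts from origins that are licensed when the origin recognition complex, Cdc6 and Cdt1 load the Mcm2 to Mcm7 ring, the core of the replicative helicase. Cdc45, the GINS complex and Mcm10 then switch the helicase on, primase with DNA polymerase alpha lays down primers, and polymerases delta and epsilon extend them with the sliding clamp Pcna, which the Rfc complex loads. Many of these genes are known targets of E2F factors, which the retinoblastoma protein restrains until cyclin-dependent kinases act. In bone, growing osteoblast precursors replicate their DNA, and mature osteoblasts mostly do not.

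Their promoters were searched for E2F-type letters. Of the 43 genes, 36 had an entry in the RefSeq promoter table (build GRCm38.p6), with 42 promoters of 250 bases before to 50 after the start. The 7-letter cores TTGGCGC and TTCCCGC, typical of E2F sites, were searched on both strands, and each match was counted even where TTGGCGC overlapped itself on the other strand. At least 1 match lay in 20 of the 42 promoters (47.6%), against 6.81% of all 32851 promoters in the table and 11.9% of the promoters of the genes tested. By gene, 19 of 36 members held a match. The centres of the 30 matches lay at -166 to 45 bases from the start, with a median of -4.5, and 21 of them lay within 100 bases of it. The CCAAT box, a common element of cell cycle promoters, lay in 54.8% of member promoters, against 37.4% of all promoters. A match is a description of letters, not a bound site.

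A few promoters show the range. Mcm3, a helicase subunit, and Rfc4, a clamp loader subunit, are shown because they were among the members with the smallest p-values in bcat samples and each holds a match. Skp2 is shown because it is the member that passed the test, and neither of its listed promoters holds an E2F-type match. Capitals mark E2F-type cores, read 5′ to 3′ on the strand of the gene. The promoters are Mcm3 at chr1:20820263-20820562, Rfc4 at chr16:23127681-23127980 and Skp2 at chr15:9140405-9140704, all on the minus strand.
Mcm3: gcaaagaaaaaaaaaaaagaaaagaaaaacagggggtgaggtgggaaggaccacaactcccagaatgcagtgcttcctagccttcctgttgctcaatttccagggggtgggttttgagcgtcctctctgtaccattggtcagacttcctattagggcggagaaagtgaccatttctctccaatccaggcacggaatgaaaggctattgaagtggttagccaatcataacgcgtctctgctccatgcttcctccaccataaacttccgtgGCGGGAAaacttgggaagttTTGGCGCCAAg
Rfc4: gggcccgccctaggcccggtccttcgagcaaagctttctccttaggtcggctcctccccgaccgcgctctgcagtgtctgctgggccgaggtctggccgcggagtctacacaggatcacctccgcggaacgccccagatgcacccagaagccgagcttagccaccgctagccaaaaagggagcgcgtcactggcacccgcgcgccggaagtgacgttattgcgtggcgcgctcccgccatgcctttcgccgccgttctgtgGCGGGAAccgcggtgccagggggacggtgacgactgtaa
Skp2: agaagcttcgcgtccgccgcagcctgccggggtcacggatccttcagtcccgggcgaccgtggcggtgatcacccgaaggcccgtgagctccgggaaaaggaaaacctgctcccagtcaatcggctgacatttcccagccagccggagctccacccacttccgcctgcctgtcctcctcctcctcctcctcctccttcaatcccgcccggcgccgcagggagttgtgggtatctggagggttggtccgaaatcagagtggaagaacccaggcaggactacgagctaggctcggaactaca

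Shorter stretches of 15 bases on either side of a core show such cores in genes of several roles. Mcm6, a helicase subunit, has a pair of TTGGCGC cores. Prim1 is the catalytic subunit of primase, Rrm1 the large subunit of ribonucleotide reductase and Pola1 the catalytic subunit of polymerase alpha. Capitals again mark the core.
Mcm6 (chr1:128359793-128359829, minus strand): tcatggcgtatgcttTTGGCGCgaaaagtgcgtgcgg
Mcm6 (chr1:128359730-128359766, minus strand): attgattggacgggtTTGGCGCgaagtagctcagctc
Prim1 (chr10:128015185-128015221, plus strand): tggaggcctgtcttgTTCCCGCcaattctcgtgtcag
Rrm1 (chr7:102441613-102441649, plus strand): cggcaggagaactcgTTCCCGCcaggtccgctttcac
Pola1 (chrX:93632119-93632155, minus strand): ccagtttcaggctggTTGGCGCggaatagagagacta

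**Figure D1:**
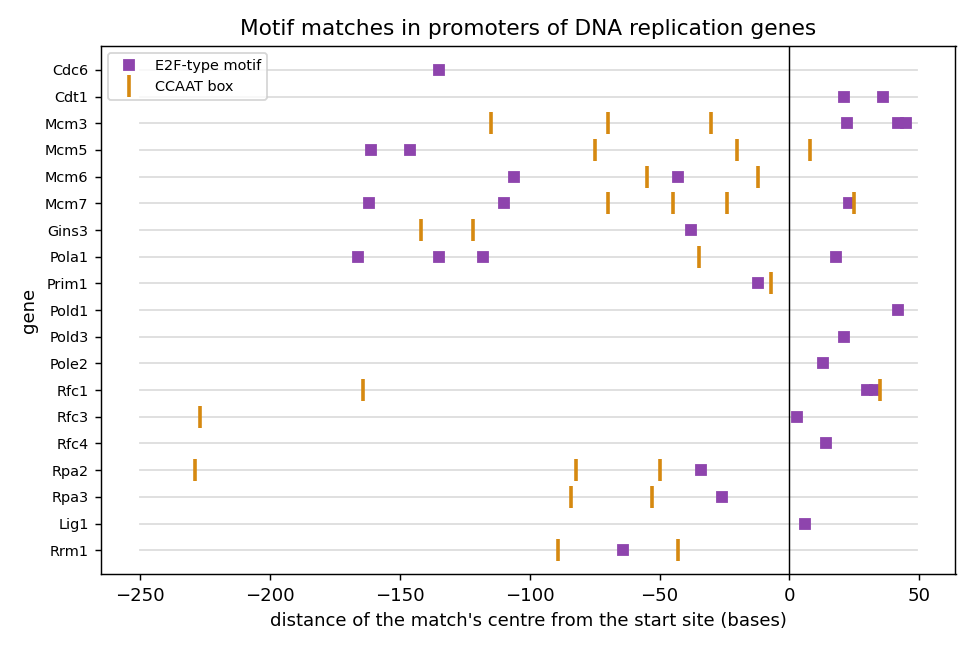
Position of motif matches in the promoters of the 19 DNA replication genes with an E2F-type match. The x axis is the distance in bases of a match's centre from the listed start site, squares are E2F-type cores, ticks are CCAAT boxes, and promoters of 1 gene share a line; 21 of 30 E2F-type matches lie within 100 bases of the start.

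By role, E2F-type cores lay in 6 of the 9 origin licensing genes with a promoter, in 5 of 7 polymerase and primase genes, and in 6 of 10 genes of the clamp, its loader, single-strand binding and the lagging strand. They lay in 1 of 3 helicase activation genes and 1 of 4 nucleotide supply genes. None of the 3 S-phase entry regulators with an entry (Ccne1, E2f1 and Skp2) held one in this window. Only listed starts were searched, and the E2f1 entry may not be its main promoter, so E2F sites elsewhere at these genes were not read. Among other gene lists, the share of promoters with a match was 41% for other replication genes, 31.6% for E2F and S-phase regulators and 17.6% for mitosis genes, and the mitosis promoters held a CCAAT box in 82.4%.

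Values are log2 MAS5 signals, so a difference of -1 is a halving of signal. Array medians lay between 7.02 and 7.22. The arrays wt 1 and 2 (r = 0.990 over the table) and wt 3 and 4 (r = 0.989) form closely similar pairs, against 0.971 to 0.973 for other wild-type pairs, so the 4 wt arrays may stand for only 2 independent samples. With each pair averaged, no member was called in any comparison. Arrays of 1 pair were alike in Xist, the RNA of the inactive X chromosome. Xist was high in FoxO1 2, FoxO1 3, wt 3 and wt 4 (14.05 to 14.43), and low in the other arrays, all bcat arrays included (5.91 to 8.96). Foxo1 signal averaged 9.87 ± 0.24 in FoxO1 samples and 10.04 ± 0.07 in wt samples (SD, n = 3 and 4; adjusted p = 0.706 by limma), and Ctnnb1 averaged 14.45 ± 0.04 in bcat samples and 14.48 ± 0.09 in wt samples (adjusted p = 0.941). Neither level checks the labels, because a probe set outside an altered part would not register it, and where these lie is not known here. Other reasons for the similar levels were not tested. Axin2, a Wnt target, averaged 8.99 ± 0.17 in bcat, 8.27 ± 0.19 in FoxO1 and 8.73 ± 0.17 in wt samples, and neither difference from wt passed the test.

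The first question was whether constitutive β-catenin moves these genes. With limma, Benjamini-Hochberg adjustment over all 11357 genes and a threshold of 0.05, 1 member fell in bcat samples relative to wt, Skp2, and 0 rose, where 0.185% of all genes tested fell and 0.599% rose. The other members lay mostly below wt without passing: 41 of 43 differences were below 0, where 48.7% of all genes tested were. The median member difference was -0.26 on the log2 scale, against 0.01 over all genes tested, and members ranged from -0.60 to 0.19. At an unadjusted p under 0.05, 17 members lay lower and 0 higher, where 5.79% of all genes tested lay lower and 6.3% higher. That count of 17 was 7 without bcat 1, 24 without bcat 3 and 9 with similar wt arrays averaged. Every bcat array lay below every wt array in 19 members (44.2%), where 6.76% of all genes tested did so, and above in 0, where 7.27% did so.

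The second question was the effect of FoxO1 deletion. No member passed the test in FoxO1 samples relative to wt, where 0.0176% of all genes tested fell and 0.00881% rose, and the smallest adjusted p was 0.379, for Ccne1. Again 39 of 43 differences lay below 0, where 50% of all genes tested did, and the median was -0.23, against 0.00 over all genes tested. Member differences ranged from -0.63 to 0.12, and 12 lay lower at an unadjusted p under 0.05 (0 higher), where 3.94% of all genes tested lay lower and 3.88% higher. That count of 12 was 7 without FoxO1 3, 6 with similar wt arrays averaged and 19 with the mean of all usable probe sets. Low-Xist arrays hold only 1 FoxO1 array, so no count is given for them. All FoxO1 arrays lay below all wt arrays in 12 members (27.9%), where 4.44% of all genes tested did so, and above in 0, where 4.59% did so. Both comparisons use the same 4 wt arrays, so the values stand side by side and do not support each other.

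The third comparison sets bcat against FoxO1 samples directly. Skp2 was lower in bcat samples and no member was higher, where 0.0881% of all genes tested were lower and 0.581% higher. The median over members was -0.03, with 23 below 0 and 19 above, where 49.2% of all genes tested lay below, and the range was -0.50 to 0.48. At an unadjusted p under 0.05, 1 member lay lower (Skp2), where 3.28% of all genes tested did, and 1 higher (Pola1), where 4.75% did. Arrays did not overlap in 3 members: Skp2 lay lower in bcat samples, where 4.16% of all genes tested did so, and Orc1 and Pola1 lay higher, where 5.39% did so.

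**Figure D2:**
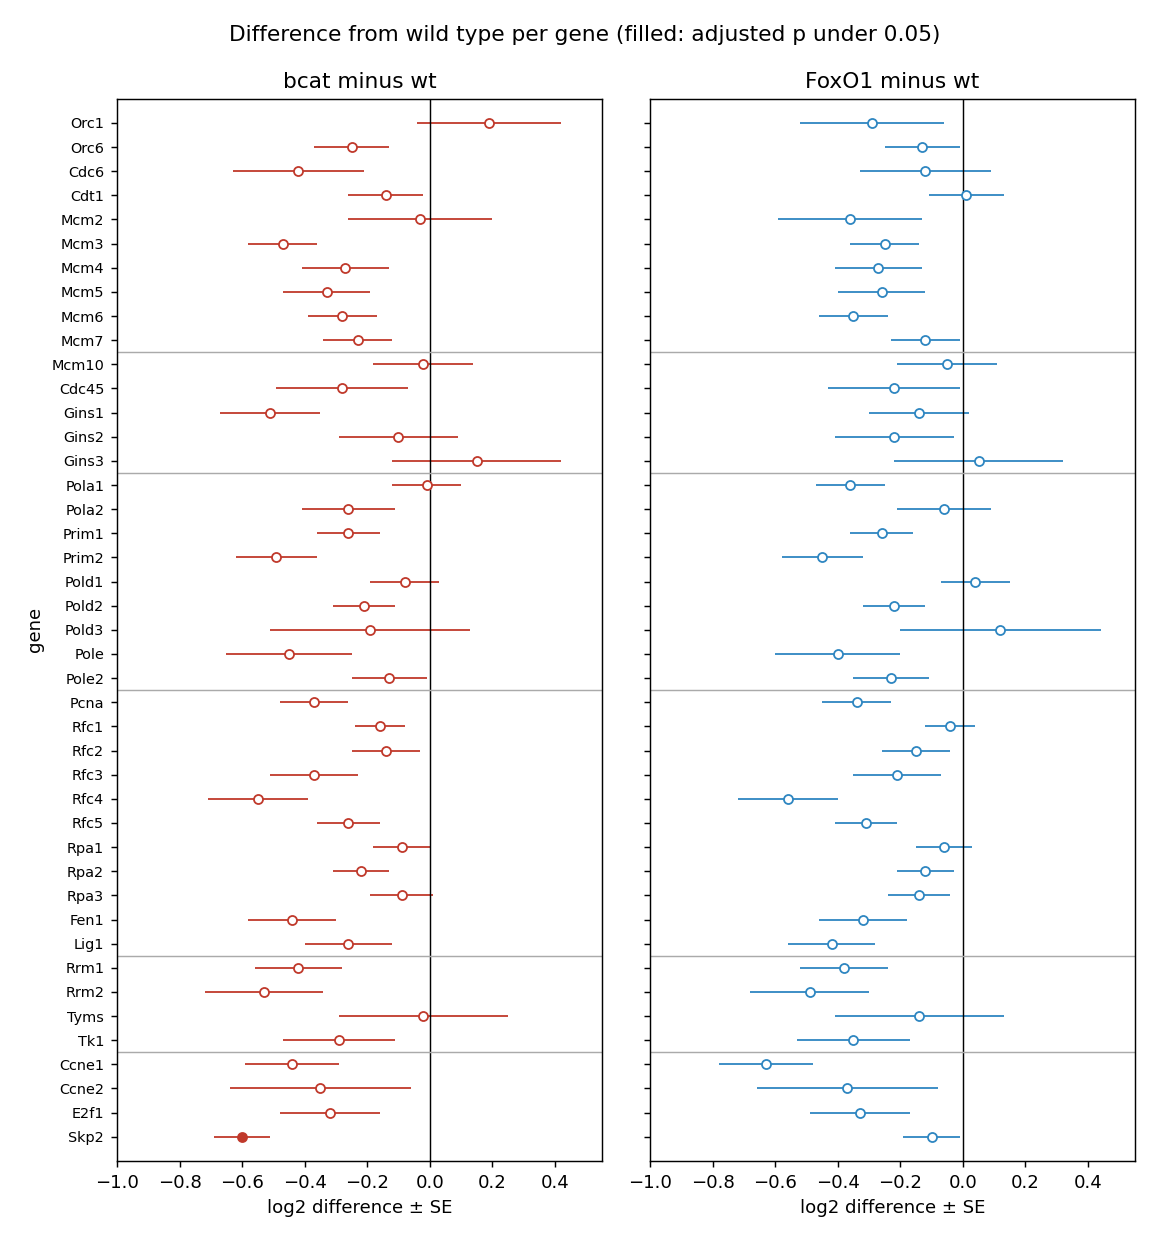
Log2 difference from wt of each DNA replication gene, for bcat (left) and FoxO1 (right), with the standard error from limma as bars; genes are grouped by role and the filled point passed the test. Differences lie below 0 for 41 genes in bcat and 39 in FoxO1 samples, and Skp2 in bcat is the filled point.

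Skp2 is the substrate-recognition subunit of a ubiquitin ligase that marks the Cdk inhibitor p27 for destruction and so helps cells enter S phase. Its signal was 10.11, 10.02 and 10.10 in the bcat arrays, 10.58, 10.75 and 10.39 in the FoxO1 arrays, and 10.66, 10.64, 10.67 and 10.72 in the wt arrays. The bcat arrays lay below all other arrays, and the FoxO1 arrays overlapped the wt arrays. Relative to wt, Skp2 fell by 0.60 ± 0.09 (SE) in bcat samples, to 66.2% of the wt signal (adjusted p = 0.0135 by limma). In FoxO1 samples the difference from wt was -0.10 ± 0.09 (adjusted p = 0.813). Between bcat and FoxO1 samples the difference was -0.50 ± 0.10 (95% interval -0.71 to -0.29, adjusted p = 0.0467).

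Skp2 has 6 usable probe sets, more than any other member, and they read the same transcript or its variants, so they are not replicates. In bcat relative to wt they differed by -0.60, -0.62, -0.56, -0.60, -0.39 and -0.61, from the brightest to the dimmest. Tested one by one over 20127 probe sets, the brightest passed (adjusted p = 0.0184) and the others had adjusted p between 0.0658 and 0.23. In FoxO1 relative to wt the 6 differences ran from -0.14 to -0.06. The fall in bcat samples rests on few arrays: the adjusted p was 0.0522 without wt 1, 0.0511 without wt 4 and 0.0508 without bcat 3, with the difference between -0.61 and -0.57 whichever array was left out. With each similar wt pair averaged to 1 value the difference was -0.60 (adjusted p = 0.212). With a term for Xist signal it was -0.58 (adjusted p = 0.0635). Among low-Xist arrays alone it was -0.57, but their wt arrays are the similar pair wt 1 and 2, so no p-value is given. The difference from FoxO1 samples lost its call without any array but FoxO1 3, with an adjusted p of up to 0.174. It was also lost with no filter (adjusted p = 0.0556), a stricter filter (0.0509), quantile normalization (0.0615), the mean of probe sets (0.0735) and no variance trend (0.0874). The same held with averaged wt pairs (0.179), the Xist term (0.296) and only these 2 genotypes in the fit (adjusted p = 0.332). Low-Xist arrays hold only 1 FoxO1 array, so no p-value is given for this difference there.

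**Figure D3:**
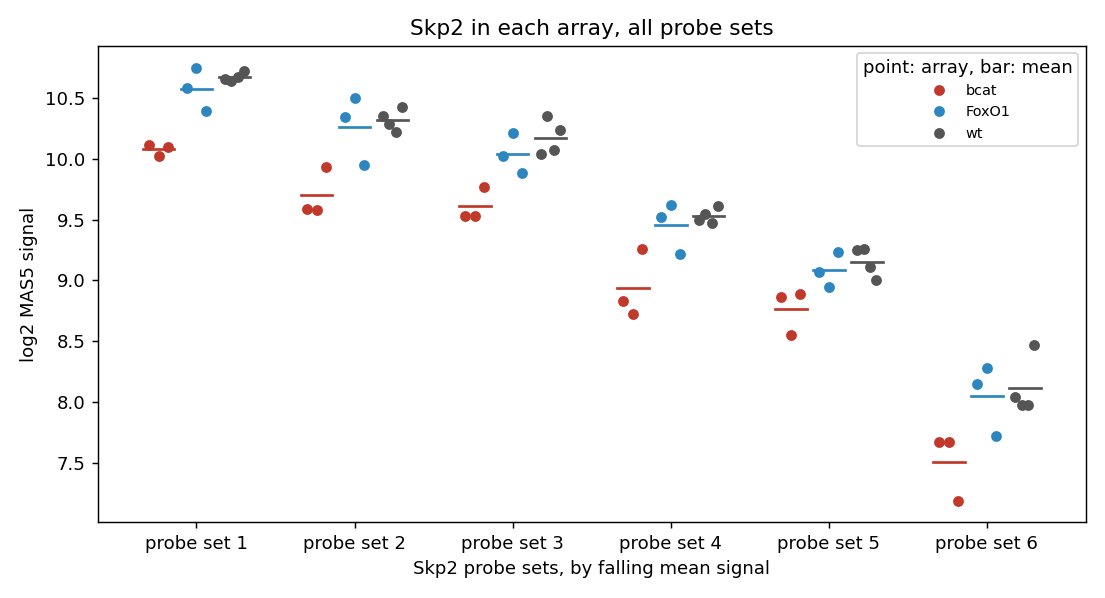
Skp2 signal (log2 MAS5, y axis) in each array for its 6 usable probe sets, ordered by falling mean; points are arrays and bars are genotype means, with bcat, FoxO1 and wt from left to right. In the brightest probe set the 3 bcat arrays sit between 10.02 and 10.11, below every FoxO1 and wt array.

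The other S-phase entry regulators lay below wt in both genotypes with the probe sets used, without passing. Ccne1 encodes cyclin E1, which activates Cdk2 at the start of S phase. Its signal was 8.34, 8.73 and 8.94 in bcat arrays, 8.55, 8.51 and 8.38 in FoxO1 arrays, and 9.29, 8.94, 9.16 and 9.06 in wt arrays. All FoxO1 arrays lay below all wt arrays, and bcat 3 reached the lowest wt array. The difference from wt was -0.44 ± 0.15 in bcat (adjusted p = 0.225) and -0.63 ± 0.15 in FoxO1 samples (adjusted p = 0.379), and between bcat and FoxO1 it was 0.19 (95% interval -0.16 to 0.54). Cyclin E2 (Ccne2) differed from wt by -0.35 in bcat and -0.37 in FoxO1 samples, and its FoxO1 arrays spread from 8.02 to 9.74. E2f1, an activating E2F, differed by -0.32 and -0.33, but its other usable probe set gave -0.24 in bcat and 0.05 in FoxO1 samples.

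Among the 10 origin licensing genes, 9 lay below wt in bcat and 9 in FoxO1 samples, and 0 passed in either. Mcm3 had the smallest p of this group in bcat samples. Its signal was 9.88, 10.15 and 10.23 in bcat arrays, 10.42, 10.44 and 10.05 in FoxO1 arrays, and 10.60, 10.56, 10.53 and 10.52 in wt arrays, so each genotype lay wholly below wt. The difference from wt was -0.47 ± 0.11 in bcat (72.4% of wt, adjusted p = 0.0968) and -0.25 ± 0.11 in FoxO1 samples (adjusted p = 0.638). Without FoxO1 3 the bcat comparison passed, at an adjusted p of 0.0445.

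The order of the ring subunits depends on the probe sets chosen: in bcat samples the other usable probe sets gave -0.72 to -0.25 for Mcm3 and -0.47 to -0.19 for Mcm7. Mcm6 stood at 10.59, 10.87 and 10.89 in bcat arrays, 10.79, 10.88 and 10.47 in FoxO1 arrays, and 11.08, 10.98, 11.08 and 11.10 in wt arrays, again without overlap with wt. It differed from wt by -0.28 ± 0.11 in bcat (adjusted p = 0.331) and -0.35 ± 0.11 in FoxO1 samples (adjusted p = 0.5). Mcm5 stood at 10.58, 10.96 and 11.00 in bcat arrays, 11.09, 11.00 and 10.64 in FoxO1 arrays, and 11.25, 11.34, 11.01 and 11.09 in wt arrays. Its bcat arrays lay just below the wt range and its FoxO1 arrays reached into it. Mcm4 stood at 10.57, 10.76 and 10.91 in bcat arrays, 10.80, 11.05 and 10.40 in FoxO1 arrays, and 11.03, 11.00, 11.07 and 10.97 in wt arrays, with overlap in FoxO1 samples alone. Mcm7 stood at 11.55, 11.94 and 12.01 in bcat arrays, 11.93, 11.83 and 12.06 in FoxO1 arrays, and 12.15, 12.13, 12.03 and 11.95 in wt arrays, and both genotypes overlapped wt. Mcm5, Mcm4 and Mcm7 differed from wt by -0.33, -0.27 and -0.23 in bcat and by -0.26, -0.27 and -0.12 in FoxO1 samples, with adjusted p of 0.367 or more. Without bcat 1 the bcat differences were -0.19 for Mcm5, -0.09 for Mcm7 and -0.18 for both Mcm4 and Mcm6, and without FoxO1 3 the FoxO1 difference of Mcm6 was -0.22.

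Mcm2 had the widest wt spread of the ring with the probe set used. It stood at 10.30, 10 and 10.26 in bcat arrays, 9.55, 10.28 and 9.74 in FoxO1 arrays, and 10.39, 9.60, 10.64 and 10.25 in wt arrays. Its difference from wt was -0.03 ± 0.23 in bcat and -0.36 ± 0.23 in FoxO1 samples, and the bcat value turned to 0.11 without wt 3. Its other usable probe set, with a wt SD of 0.09 against 0.44, gave -0.25 in bcat and -0.33 in FoxO1 samples. Over Mcm2 to Mcm7, the median difference was -0.27 in bcat and -0.26 in FoxO1 samples. Of the loading factors, Cdc6 differed from wt by -0.42 ± 0.21 in bcat and -0.12 ± 0.21 in FoxO1 samples, Cdt1 by -0.14 and 0.01, and Orc6, an origin recognition subunit, by -0.25 and -0.13.

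Orc1, the largest origin recognition subunit, was the licensing gene above wt in bcat samples. It stood at 7.74, 7.48 and 7.66 in bcat arrays, 7.11, 7.35 and 6.97 in FoxO1 arrays, and 7.83, 7.60, 7.43 and 6.88 in wt arrays. The bcat arrays lay above all FoxO1 arrays and inside the wt range. The difference from FoxO1 samples was 0.48 (95% interval -0.06 to 1.02, adjusted p = 0.673). Orc1 lies near the table's median signal of 7.15, and its other usable probe set differed from wt by -0.37 in bcat samples, where the one used gave 0.19, and from FoxO1 by 0.01.

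The 5 helicase activators had a median difference from wt of -0.10 in bcat and -0.14 in FoxO1 samples, and 0 passed. Gins1, a GINS subunit, stood apart among them, at 7.96, 8.40 and 8.55 in bcat arrays, 8.89, 8.45 and 8.66 in FoxO1 arrays, and 8.78, 8.90, 8.83 and 8.73 in wt arrays. The bcat arrays lay below all wt arrays, with bcat 1 lowest, and FoxO1 arrays overlapped both. The difference from wt was -0.51 ± 0.16 in bcat (70.4% of wt, adjusted p = 0.182) and -0.14 ± 0.16 in FoxO1 samples, and -0.33 in bcat samples without bcat 1 and FoxO1 3 (adjusted p = 0.331). Cdc45 differed from wt by -0.28 in bcat and -0.22 in FoxO1 samples, Gins2 by -0.10 and -0.22, Gins3 by 0.15 and 0.05, and Mcm10 by -0.02 and -0.05. The second probe sets of Cdc45 and Gins3 gave the opposite sign in bcat samples, 0.13 and -0.42, and that of Gins2 gave -0.53 in bcat and -0.47 in FoxO1 samples. The bcat median of this role is the value of the Gins2 probe set used, so it rests on that choice.

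**Figure D4:**
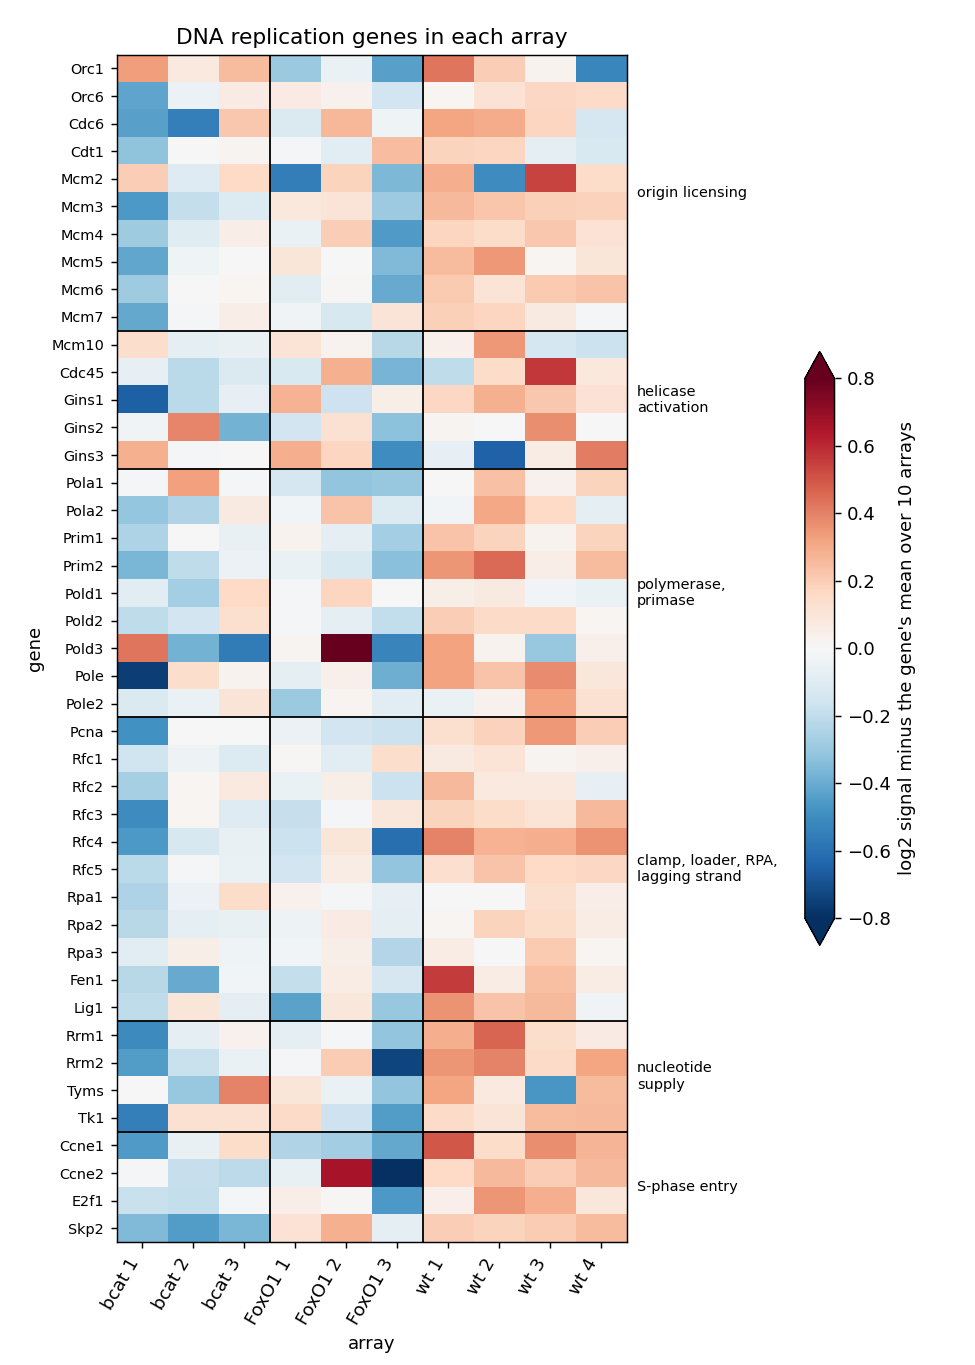
Signal of each DNA replication gene in each array as the difference from that gene's mean over the 10 arrays (log2, blue lower and red higher, colours saturating at the ends of the scale), genes by role and arrays as bcat, FoxO1 and wt from left to right. The columns bcat 1 and FoxO1 3 are the bluest, and the wt columns are mostly red.

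Of the 9 polymerase and primase genes, all 9 lay below wt in bcat and 7 in FoxO1 samples, and 0 passed. Prim2, the regulatory primase subunit, stood at 8.90, 9.06 and 9.22 in bcat arrays, 9.21, 9.14 and 8.93 in FoxO1 arrays, and 9.62, 9.72, 9.32 and 9.52 in wt arrays. Both genotypes lay below every wt array. The difference from wt was -0.49 ± 0.13 in bcat (71.4% of wt, adjusted p = 0.121) and -0.45 ± 0.13 in FoxO1 samples (73.1%, adjusted p = 0.434), and its other usable probe set gave -0.44 and -0.43. Prim1 differed by -0.26 ± 0.10 in each with the probe set used, but its other usable probe set gave -0.19 in bcat and -0.59 in FoxO1 samples.

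Pola1 was lower in FoxO1 arrays than in the others without passing. It stood at 9.37, 9.71 and 9.37 in bcat arrays, 9.25, 9.07 and 9.08 in FoxO1 arrays, and 9.39, 9.62, 9.42 and 9.56 in wt arrays, so that FoxO1 arrays lay below all others and bcat arrays reached the wt range. Its difference from wt was -0.01 ± 0.11 in bcat and -0.36 ± 0.11 in FoxO1 samples (adjusted p = 0.495), and bcat exceeded FoxO1 by 0.35 (95% interval 0.08 to 0.62, adjusted p = 0.425). The catalytic subunit of polymerase epsilon, Pole, differed from wt by -0.45 in bcat and -0.40 in FoxO1 samples, and the accessory subunit Pole2 by -0.13 and -0.23. For polymerase delta, the catalytic Pold1 differed by -0.08 and 0.04, and the accessory Pold2 by -0.21 and -0.22. Pold3, another accessory subunit, spread from 8.31 to 9.78 within FoxO1 arrays, and its probe sets differed in sign in both comparisons.

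The 11 genes of the clamp, its loader, single-strand binding and the lagging strand all lay below wt in both genotypes, and 0 passed. Pcna stood at 12.27, 12.75 and 12.76 in bcat arrays, 12.71, 12.60 and 12.58 in FoxO1 arrays, and 12.88, 12.94, 13.10 and 12.95 in wt arrays. No bcat or FoxO1 array reached the lowest wt array. The difference from wt was -0.37 ± 0.11 in bcat (77.2% of wt, adjusted p = 0.18) and -0.34 ± 0.11 in FoxO1 samples (79.1%, adjusted p = 0.552), and the bcat value was -0.21 without bcat 1 and FoxO1 3.

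Within the clamp loader, Rfc4 stood lowest against wt in both genotypes. Its signal was 8.73, 9.06 and 9.13 in bcat arrays, 9.02, 9.29 and 8.59 in FoxO1 arrays, and 9.59, 9.47, 9.48 and 9.55 in wt arrays. The wt arrays lay within a narrow band above all others. It differed from wt by -0.55 ± 0.16 in bcat (68.3% of wt, adjusted p = 0.159) and -0.56 ± 0.16 in FoxO1 samples (68%, adjusted p = 0.435), or -0.43 and -0.37 without bcat 1 and FoxO1 3. Rfc5 stood at 9.40, 9.60 and 9.56 in bcat arrays, 9.46, 9.67 and 9.30 in FoxO1 arrays, and 9.75, 9.84, 9.77 and 9.78 in wt arrays, without overlap with wt. Its difference from wt was -0.26 ± 0.10 in bcat (adjusted p = 0.307) and -0.31 ± 0.10 in FoxO1 samples (adjusted p = 0.538).

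Rfc1, the large loader subunit, had a smaller difference. It stood at 9.96, 10.08 and 10.01 in bcat arrays, 10.13, 10.03 and 10.26 in FoxO1 arrays, and 10.19, 10.23, 10.14 and 10.16 in wt arrays, below wt throughout in bcat samples and overlapping in FoxO1 samples. Its difference from wt was -0.16 ± 0.08 in bcat and -0.04 ± 0.08 in FoxO1 samples. Rfc3 differed by -0.37 and -0.21, and Rfc2 by -0.14 and -0.15. The single-strand binding subunits Rpa1, Rpa2 and Rpa3 differed from wt by -0.22 to -0.09 in bcat and by -0.14 to -0.06 in FoxO1 samples with the probe sets used, but the other usable probe set of Rpa2 gave -0.47 in each. Fen1, the flap nuclease of Okazaki fragments, differed from wt by -0.44 in bcat and -0.32 in FoxO1 samples, and the ligase Lig1 by -0.26 and -0.42.

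Nucleotide supply genes lay below wt in all 4 members, with a median of -0.36 in each genotype. Rrm1 stood at 10.13, 10.56 and 10.67 in bcat arrays, 10.56, 10.62 and 10.32 in FoxO1 arrays, and 10.93, 11.10, 10.78 and 10.70 in wt arrays, with every bcat and FoxO1 array below every wt array. It differed from wt by -0.42 ± 0.14 in bcat (74.5% of wt, adjusted p = 0.225) and -0.38 ± 0.14 in FoxO1 samples (77%, adjusted p = 0.59), and the bcat value was -0.26 without bcat 1. Its partner Rrm2, the small subunit that is made in S phase, differed by -0.53 ± 0.19 and -0.49 ± 0.19. The thymidine kinase Tk1 differed by -0.29 and -0.35. Tyms, thymidylate synthase, differed by -0.02 ± 0.27 and -0.14 ± 0.27 near the table's median signal, and a further probe set that also lists the pseudogene Tyms-ps was left out.

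The differences were unequal across arrays of 1 genotype. The mean of the members, each taken relative to its own mean over all arrays, was -0.23, -0.09 and -0.01 in the bcat arrays, -0.05, 0.06 and -0.26 in the FoxO1 arrays, and 0.18, 0.15, 0.15 and 0.10 in the wt arrays. All wt arrays lay above all others, and bcat 1 and FoxO1 3 lay lowest. Of the 43 members, 19 had their lowest value of the 10 arrays in bcat 1 (44.2%, against 13.6% of all genes tested) and 11 in FoxO1 3 (25.6%, against 17.2%). The highest value was in a wt array for 33 of the 43 members, where this held for 29.2% of all genes tested. Without bcat 1 and FoxO1 3 the median difference from wt was -0.18 in bcat and -0.14 in FoxO1 samples, with 39 and 37 of 43 below 0.

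Neighbouring gene lists were read in the same way. Of 36 other replication genes tested, 2 fell in bcat samples and 0 rose, where 0.185% of all genes tested fell and 0.599% rose. Their median in bcat samples was -0.26, with 30 below 0. In FoxO1 samples 0 passed, with a median of -0.18 and 25 below 0. The 2 were Chaf1b, a subunit of the histone chaperone that assembles chromatin behind the fork, at 8.31, 8.56 and 8.26 in bcat arrays against 9.04, 8.92, 8.87 and 8.99 in wt arrays (difference -0.58, adjusted p = 0.0394), and Pole3, a histone-fold subunit of polymerase epsilon (difference -0.49, adjusted p = 0.0455). Chaf1b lost its call without any of 7 arrays (adjusted p up to 0.142) and Pole3 without any of 8 (up to 0.139). With similar wt arrays averaged, no gene tested was called lower in bcat samples, Chaf1b and Pole3 included. Mitosis genes, such as Aurkb (-0.40 in bcat, adjusted p = 0.166) and Mad2l1 (-0.41, 0.247), lay below wt in 18 of 18, with 0 passing and medians of -0.33 in bcat and -0.29 in FoxO1 samples. Their mean score was -0.58 in bcat 1, against 0.08 and 0.09 in bcat 2 and 3.

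Among 17 E2F and S-phase regulators tested, Rb1 rose in bcat samples and 0 fell, where 0.599% of all genes tested rose and 0.185% fell. Rb1 encodes the retinoblastoma protein that restrains E2F factors. It stood at 10.40, 10.47 and 10.42 in bcat arrays, 9.69, 9.69 and 9.54 in FoxO1 arrays, and 9.97, 10.02, 10.01 and 9.97 in wt arrays. The 3 genotypes did not overlap. Of all genes tested, 7.27% lay wholly higher in bcat than wt, 4.44% wholly lower in FoxO1 than wt and 5.39% wholly higher in bcat than FoxO1. The difference was 0.44 ± 0.08 from wt (adjusted p = 0.0235, lost without any one wt or bcat array, up to 0.086) and 0.79 ± 0.08 from FoxO1 samples (adjusted p = 0.00137, at most 0.0102 without any one array). In FoxO1 samples Rb1 differed from wt by -0.35 ± 0.08 (adjusted p = 0.343). The list's median was -0.18 in bcat and -0.11 in FoxO1 samples. E2f2, which had the lowest difference of the list in bcat samples, stood at 7.40, 7.37 and 7.22 in bcat arrays and 7.08, 7.26 and 6.90 in FoxO1 arrays, against 8.79, 8.76, 7.74 and 7.82 in wt arrays, and its wt values split along the similar pairs (bcat difference -0.95, adjusted p = 0.16).

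Markers of erythroid and neutrophil lineages lay below wt as well. In bulk RNA, fewer cells of a type and less RNA per cell cannot be told apart. The 8 erythroid markers that passed the filter lay below wt in both genotypes. Klf1, Rhag and Ermap had every bcat array under the table's median of 7.15 and passed through their other arrays. Rhd and Trim10 had most bcat and FoxO1 arrays under 7.15 and passed only with the help of their wt arrays. The count of 8 thus supports nothing. The mean level of the 8, which bears the same limit, was 6.73 to 7.41 in bcat, 7.06 to 8.70 in FoxO1 and 8.36 to 9.32 in wt arrays. Rhd and Ermap led by p (-1.23 and -1.84 in bcat, adjusted p = 0.0779 and 0.0829 by limma), both with that limit. Gata1, Epb42 and Hba-a1 were under the signal filter. The 6 genes of the neutrophil list that passed the filter lay below wt too. Mpo, under 7.15 in every bcat array, bears the same limit. Mean levels of the 6 were 7.88 to 8.66 in bcat, 7.09 to 9.96 in FoxO1 and 10.11 to 11.27 in wt arrays. S100a8 and Ltf led (-2.55 and -1.80 in bcat, adjusted p = 0.0702 and 0.0875). The precursor genes Elane, Prtn3, Ctsg and Ms4a3 were under the filter, so the list says little of dividing precursors. None of these markers passed the test, and their part in the lower replication signal was not tested.

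Of 9 chondrocyte markers tested, 8 lay above wt in bcat and 9 in FoxO1 samples, with medians of 0.73 and 1.14, and Col11a2 lay below wt in bcat samples (-0.28). They were led by Sox9 (0.87 in bcat, adjusted p = 0.0838) and with Col2a1 at 0.83 (0.282); 0 passed. Osteoblast markers were bright in all arrays, with mean levels of 13.55 to 13.95 over 7 genes. Their median difference was 0.11 in each genotype, led by Phex (0.54 in bcat, adjusted p = 0.0889) and Alpl (0.27, 0.433). Skeletal muscle markers were bright too, with mean levels of 11.53 to 13.17 in bcat, 11.83 to 13.04 in FoxO1 and 11.78 to 12.97 in wt arrays. Signal of other cell types was thus present. The muscle score was uneven within genotypes, at -0.90, 0.74 and 0.31 in the bcat arrays. No member of the B-cell precursor, macrophage and leukocyte, skeletal muscle or endothelial lists passed in bcat or FoxO1 relative to wt, with bcat medians of -0.71, -0.18, 0.12 and 0.33. Their leading genes by p in bcat samples were Cd79b (-0.99) and Ebf1 (0.40) of B-cell precursors, and Itgam (-0.57) and Adgre1 (0.26) of macrophages and leukocytes. For muscle they were Acta1 (0.22) and Ckm (0.37), and for endothelium Kdr (0.42) and Pecam1 (0.47). The smallest adjusted p by limma was 0.0824, for Kdr. Cd79b was under 7.15 in every bcat array and Igll1 in all but bcat 1, and both passed the filter through other arrays. The B-cell precursor median of -0.71 thus bears the filter limit given for the erythroid markers.

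**Figure D5:**
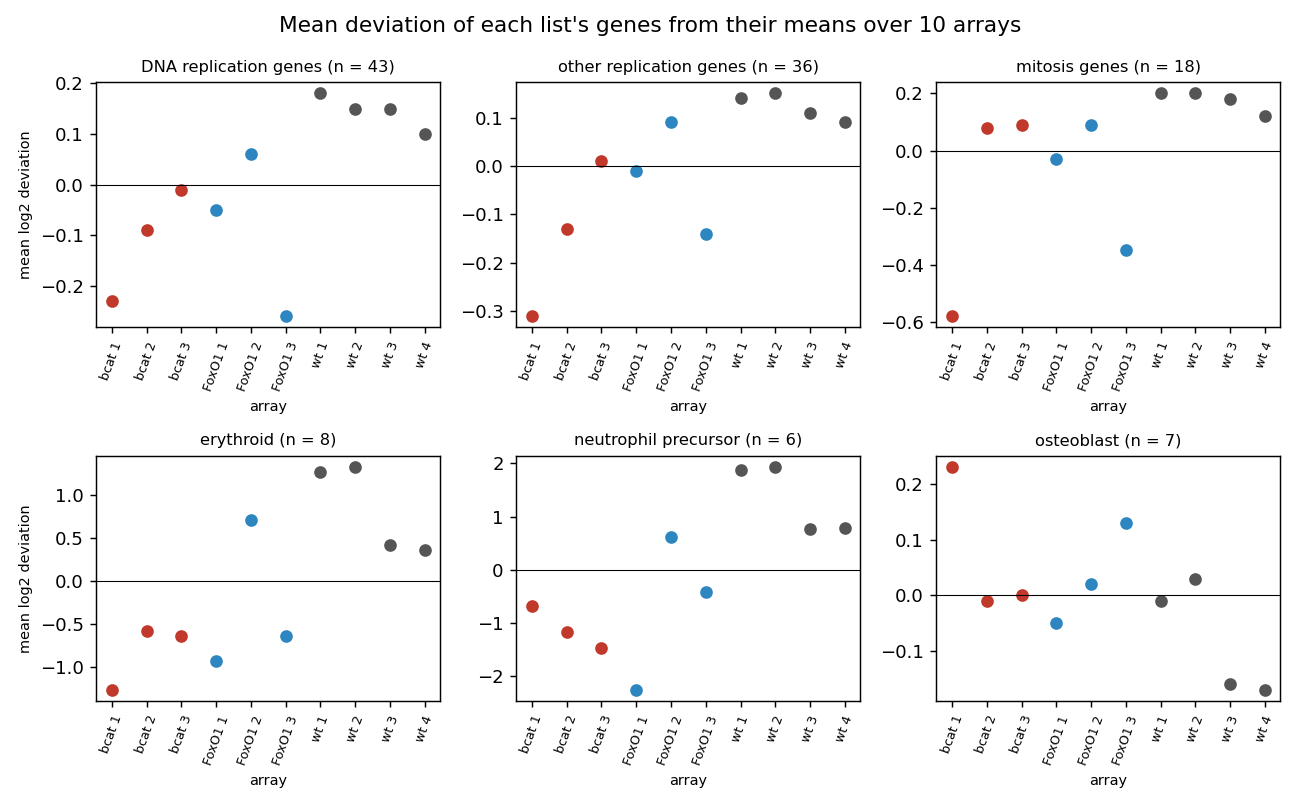
Mean log2 deviation of the genes of 6 lists from their own means over the 10 arrays (y axis, scale differs by panel), 1 point an array, with bcat, FoxO1 and wt arrays from left to right. For the DNA replication genes the wt arrays lie at 0.10 to 0.18 and all others at 0.06 or below; in the mitosis genes bcat 1 and FoxO1 3 stand apart from the rest of their genotypes.

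Other usable probe sets of the members mostly had the same sign as the one used in the comparisons with wt. Of 83 usable probe sets, 79 lay below 0 in bcat relative to wt and 77 in FoxO1 relative to wt. Opposite signs occurred for 4 of 40 further probe sets in bcat (Orc1, Cdc45, Gins3 and Pold3) and 5 of 40 in FoxO1 samples (Cdt1, Gins3, Pold1, Pold3 and E2f1). Between bcat and FoxO1 samples, 15 of 40 had the opposite sign, in 14 genes. Taking the mean of all usable probe sets of a gene, all 43 members lay below 0 in both, with Skp2 again the member called in bcat.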

How the data were processed

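Total RNA of 10 osteoblast samples was hybridised to 1-colour Affymetrix arrays after biotin labelling from 500 ng, per the labels' protocols. The deposited table holds log2 signal, and the submitters' processing notes name MAS5 but give no version; further steps by the authors are not given in the sources used here. The log base was read from the values: taken as log2, each array's linear mean after trimming 2% at each end was near 500.0, a scaling visible in the file. Gene symbols came from the platform annotation: 34958 had 1 gene symbol, 932 several and 9211 none.

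Probe sets needed signal above the table median of 7.15 in at least 3 arrays. Each gene used its kept probe set of highest mean. limma 3.58.1 (R 4.3.3) fitted a mean per genotype over 10 arrays (7 residual degrees of freedom), with trended eBayes and two-sided tests adjusted by Benjamini-Hochberg over 11357 genes at 0.05. The number of arrays limits the precision. The fit was tested on simulated data.

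The members and lists were chosen with earlier results of these data known, so no list has a test. Values in every array were given for the 6 members with the smallest p in each comparison, Mcm2 to Mcm7 and the smallest p in each role; other lists give their 2 smallest p and each gene that passed. Alternatives covered filters, scaling, probe set choice, variance settings, a replicate block, Xist, the similar wild-type pairs and each array left out. Promoter sequences are RefSeq's (GRCm38.p6).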

Additional observations from a re-analysis of the deposited data

Results flagged for a closer look

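Of 43 members and their mean score tested in the 4 wt arrays, the only genotype with enough samples for this check, 2 members had an array far from the rest, and chance alone flags about 1 in 20 such groups. Mcm6 was 10.98 in wt 2, against 11.08 to 11.10 in the other wt arrays, a gap of 0.833 of the whole range and just past the critical value for 4 samples. Gins2 was 8.91 in wt 3, against 8.54 to 8.56 in the others, a gap of 0.946 of the range. The Mcm6 value still lay above every bcat and FoxO1 array, and the Gins2 value raised the wt mean of a gene that did not pass in any comparison.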

How the results depend on the processing

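The median member difference kept its sign from wt in both genotypes under every alternative run, from -0.32 to -0.18 in bcat and -0.31 to -0.14 in FoxO1 samples when 1 array was left out, and from -0.10 to 0.07 between bcat and FoxO1 samples. No member was called in FoxO1 relative to wt under any alternative. The count of members called lower in bcat relative to wt (1) was 2 with only the 2 genotypes in the fit, 0 with a replicate block (Skp2 -0.58, adjusted p = 0.143), 0 with similar wt arrays averaged, 0 with a term for Xist signal (Skp2 -0.58, adjusted p = 0.0635), and 0 to 3 with 1 array left out. Lower in bcat than FoxO1 (1) became 0 with no filter, a stricter filter, quantile normalization, the mean of probe sets or each probe set on its own. That count was also 0 with only the 2 genotypes compared, the replicate block, no variance trend, averaged wt arrays or the Xist term. It was 0 to 1 with 1 array left out. Mcm2 in bcat relative to wt (-0.03) turned to 0.19 with the Xist term, 0.19 in low-Xist arrays alone, 0.02 without wt 1, 0.11 without wt 3 and 0.06 without bcat 2, within a range of -0.24 to 0.11 with 1 array left out. The cause of these shifts was not tested, beyond the fewer samples or genes that some alternatives use. Over the named genes and all alternatives, 593 values kept their direction and side of the threshold, 73 lost a call, 1 (Mcm3) gained one and 5 (all Mcm2) changed sign. Replicate numbers gave no steady sign of paired samples. Same-numbered bcat and wt arrays had correlations of deviations of 0.29, -0.29 and 0.09, and FoxO1 and wt arrays -0.17, 0.17 and 0.05. For bcat and FoxO1 arrays they were -0.23, -0.29 and -0.07. With so few arrays, these values cannot show that the samples were unpaired. Over all genes, 68 higher and 21 lower in bcat relative to wt became 15 and 0 with the block, 9 and 0 with averaged wt arrays, 33 and 2 with the Xist term, 95 and 46 with only the 2 genotypes, 105 and 70 in low-Xist arrays, and 55 and 9 with no variance trend. The low-Xist arrays hold 1 FoxO1 array, and their wt arrays are the similar pair wt 1 and 2. Counts there may thus rest on few independent samples. Leaving out bcat 1 and FoxO1 3 together was chosen after seeing the data.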
